A study of Rattus norvegicus with 5 samples.

Results

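The neurexin, neuroligin and cerebellin genes *Nrxn2* (ENSRNOG00000021103), *Nrxn3* (ENSRNOG00000047574), *Nlgn1* (ENSRNOG00000032576), *Nlgn2* (ENSRNOG00000015430), *Nlgn3* (ENSRNOG00000003812), *Cbln1* (ENSRNOG00000000010), *Cbln2* (ENSRNOG00000013654) and *Cbln4* (ENSRNOG00000004372) were followed in single nuclei of the rat ventral tegmental area (VTA). These 8 genes were taken by symbol from the 32883 genes of the count tables, and each was present once. They were measured in 5 libraries, 1 per adult male Sprague-Dawley rat, each made from VTA punches of both hemispheres pooled within the animal. The labels give saline as the treatment of all 5 rats and the study's own text calls them drug-naïve, so there was a single condition, and the comparisons are between cell classes of the same rats. Barcodes with at least 1000 unique molecular identifiers (UMIs, each standing for 1 captured transcript), more than 200 and fewer than 5000 genes and under 5% of UMIs from mitochondrial genes were used, which left 22084 barcodes.

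Neurexins are presynaptic adhesion proteins whose extracellular part reaches across the synaptic cleft. Neuroligins are postsynaptic proteins that bind neurexins directly, whereas cerebellins are secreted proteins of the C1q family that bind a neurexin on one side and a glutamate delta receptor on the other. Neuroligin-1 is known mostly from excitatory synapses, neuroligin-2 from inhibitory and dopaminergic synapses, and neuroligin-3 from both kinds of synapse and from glia. The VTA holds dopamine neurons, which project to the striatum and cortex, together with GABA and glutamate neurons and the usual glia, among them oligodendrocyte precursor cells (OPCs), which receive synapses from neurons.

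Clusters of nuclei were named from marker genes, and the 8 genes and their partner genes were kept out of the clustering. A total of 15793 nuclei fell into 8 classes, of which 880 were dopamine-like, 2315 GABA-like and 1072 glutamate-like. Levels are given as UMIs per 10000 UMIs of all nuclei of a class in a rat, and a class was used in a rat only with at least 20 nuclei. Rat 1 had 6 dopamine-like nuclei and rat 3 had 14 astrocyte-like nuclei, so these classes rest on 4 rats each. Each of the OPC, dopamine, GABA and glutamate lists had its highest mean in the class of its name. The 4 OPC markers summed to 42.7 to 66.8 UMIs per 10000 in OPC-like nuclei and to at most 4.57 in any other class and rat. The 3 glutamate markers summed to 1.67 to 2.58 in glutamate-like nuclei and reached 1.99 in the microglia-like nuclei of 1 rat, and the dopamine list summed to 30.2 to 40.3 in dopamine-like and 2.07 to 6.16 in glutamate-like nuclei. The glutamate class rested on *Slc17a6*, since *Slc17a7* and *Slc17a8* were near 0 in it at 0.118 and 0.0765. The 4 GABA markers summed to 7.89 to 10.4 in GABA-like nuclei and also to 3.59 to 8.22 in OPC-like nuclei. Rat 3 stood apart, with the fewest UMIs (10193355 against 31918808 to 88576210), a median of 1605.5 UMIs per barcode and neurons that formed sub-clusters of their own.

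*Nrxn3* set glutamate-like nuclei apart from dopamine-like and GABA-like nuclei. Its level was 103 to 157 UMIs per 10000 in the dopamine-like nuclei of 4 rats and 69.0 to 122 in the GABA-like nuclei of 5 rats, and 22.9 to 34.8 in glutamate-like nuclei. The glutamate-like values lay below every dopamine-like and GABA-like value, whereas the last 2 classes overlapped. The means were 136 ± 23.1 (SD, n = 4), 105 ± 20.6 (SD, n = 5) and 29.95 ± 4.90 (SD, n = 5). Rat 3 was the lowest of its class among dopamine-like and GABA-like nuclei but not among glutamate-like nuclei, where it stood at 33.0. Of its 351 glutamate-like nuclei, 233 lay in a sub-cluster led by *Slc26a7* and *Ebf2*. The sub-cluster led by *Slc26a7* and *Npsr1*, mostly of the other rats, was of no named class, so the glutamate-like class may hold other neurons in rat 3. Of its 781 GABA-like nuclei, 411 lay in a sub-cluster with marker scores of 0.365 for GABA and 0.166 for glutamate. The GABA-like class of rat 3 may thus be mixed as well. With edgeR's quasi-likelihood test on sums per rat and class, with the rat as a block, *Nrxn3* was 4.75-fold higher in dopamine-like than in glutamate-like nuclei (log2 2.25, SE 0.19, adjusted p = 3.03e-11, higher in 4 of 4 rats). It was 3.50-fold higher in GABA-like than in glutamate-like nuclei (log2 1.81, SE 0.18, adjusted p = 5.15e-09, higher in 5 of 5 rats). Of the 11771 genes tested, 15.6% were called between dopamine-like and glutamate-like nuclei (7.88% higher and 7.71% lower in dopamine-like nuclei) and 4.47% between GABA-like and glutamate-like nuclei (2.41% higher and 2.06% lower in GABA-like nuclei), and *Nrxn3* was the member called of the 6 that were tested, in both comparisons. When free RNA was subtracted from each sum, the same differences were 2.43 and 2.05 on the log2 scale but missed the threshold in the fit of all classes (adjusted p = 0.09996 and 0.418). That subtraction left oligodendrocyte-like nuclei at 0.286 UMIs per 10000, and whether this bears on the lost calls was not tested. A fit of the 3 neuron classes alone, chosen after seeing the data, called both after subtraction (edgeR adjusted p = 1.09e-06 and 2.76e-05). With nuclei typed by their own markers, GABA-like and glutamate-like nuclei differed by 1.68 and missed the threshold (adjusted p = 0.278). Neuronal sub-clusters of no named class were left out of these comparisons. Among those with at least 10 nuclei of each of at least 3 rats, glutamate markers scored highest in the ones led by *Slc26a7*, *Adgrv1* and *Tph2*. These stood at 165, 84.1 and 29.1 UMIs of *Nrxn3* per 10000.

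Between dopamine-like and GABA-like nuclei the same test called 0 of the 6 members, against 18.8% of all genes (9.38% higher and 9.46% lower in dopamine-like nuclei). At an unadjusted p under 0.05 there were 3 (*Nrxn2*, *Nrxn3* and *Nlgn3*), and DESeq2 called 0. *Nrxn3* was higher in the dopamine-like nuclei of 4 of 4 rats by 0.44 on the log2 scale (SE 0.18, adjusted p = 0.0966), and it passed the test without rat 3 (0.42, adjusted p = 0.0426) and with no filter on low counts (0.41, adjusted p = 0.0271). *Nrxn2* was lower in 4 of 4 rats by -0.47 (SE 0.20, adjusted p = 0.115), and *Nlgn3* by -0.50 (SE 0.19, adjusted p = 0.0687), also in 4 of 4 rats. With no filter both passed (adjusted p = 0.0126 for *Nrxn2* and 0.0485 for *Nlgn3*), and with nuclei thinned to 1000 UMIs *Nrxn2* did (adjusted p = 0.0223). The fit of the 3 neuron classes alone, in which 25.1% of 11138 genes were called, passed *Nrxn2* (adjusted p = 0.00513) and *Nrxn3* (adjusted p = 0.0224). Once free RNA was subtracted in that fit, *Nrxn2* still passed (log2 -0.56, adjusted p = 0.0075), and *Nrxn3*, at 0.45 before and 0.44 after, missed the threshold (adjusted p = 0.0803).

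Outside neurons, *Nrxn3* was at 28.7 ± 1.999 UMIs per 10000 in astrocyte-like nuclei (SD, n = 4), at 17.3 ± 2.25 in OPC-like nuclei (SD, n = 5) and at 1.52 ± 0.375 in oligodendrocyte-like nuclei (SD, n = 5). Its astrocyte-like values overlapped those of glutamate-like neurons, and its OPC-like values lay below both. Vascular-like and microglia-like nuclei had means of 5.68 and 4.42, and the overlap of their ranges rested on rat 1, without which the microglia-like mean was 1.76 and no value reached the vascular-like ones. *Nrxn3* fell by 5.48 on the log2 scale from neurons to oligodendrocyte-like nuclei, a 44.7-fold difference (SE 0.20, edgeR adjusted p = 3.94e-22). OPC-like nuclei were 10.0-fold above oligodendrocyte-like nuclei (log2 3.33, SE 0.20, adjusted p = 3.11e-16). The size of both differences moved with the processing, and both were called in 14 of 14 alternatives. The first ran from -3.92 with nuclei typed by their own markers to -10.47 with free RNA subtracted, and the second from 2.37 to 8.18, and the oligodendrocyte-like level was 5.68 and 0.286 UMIs per 10000 under these settings. OPC-like nuclei were also below astrocyte-like nuclei in 4 of 4 rats (log2 -0.78, SE 0.19, adjusted p = 0.000923), a call that was lost with free RNA subtracted (log2 -1.06, adjusted p = 0.382), with nuclei typed by their own markers (log2 -0.48, adjusted p = 0.497) and with libraries centred (log2 -0.50, adjusted p = 0.387).

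**Figure D1:**
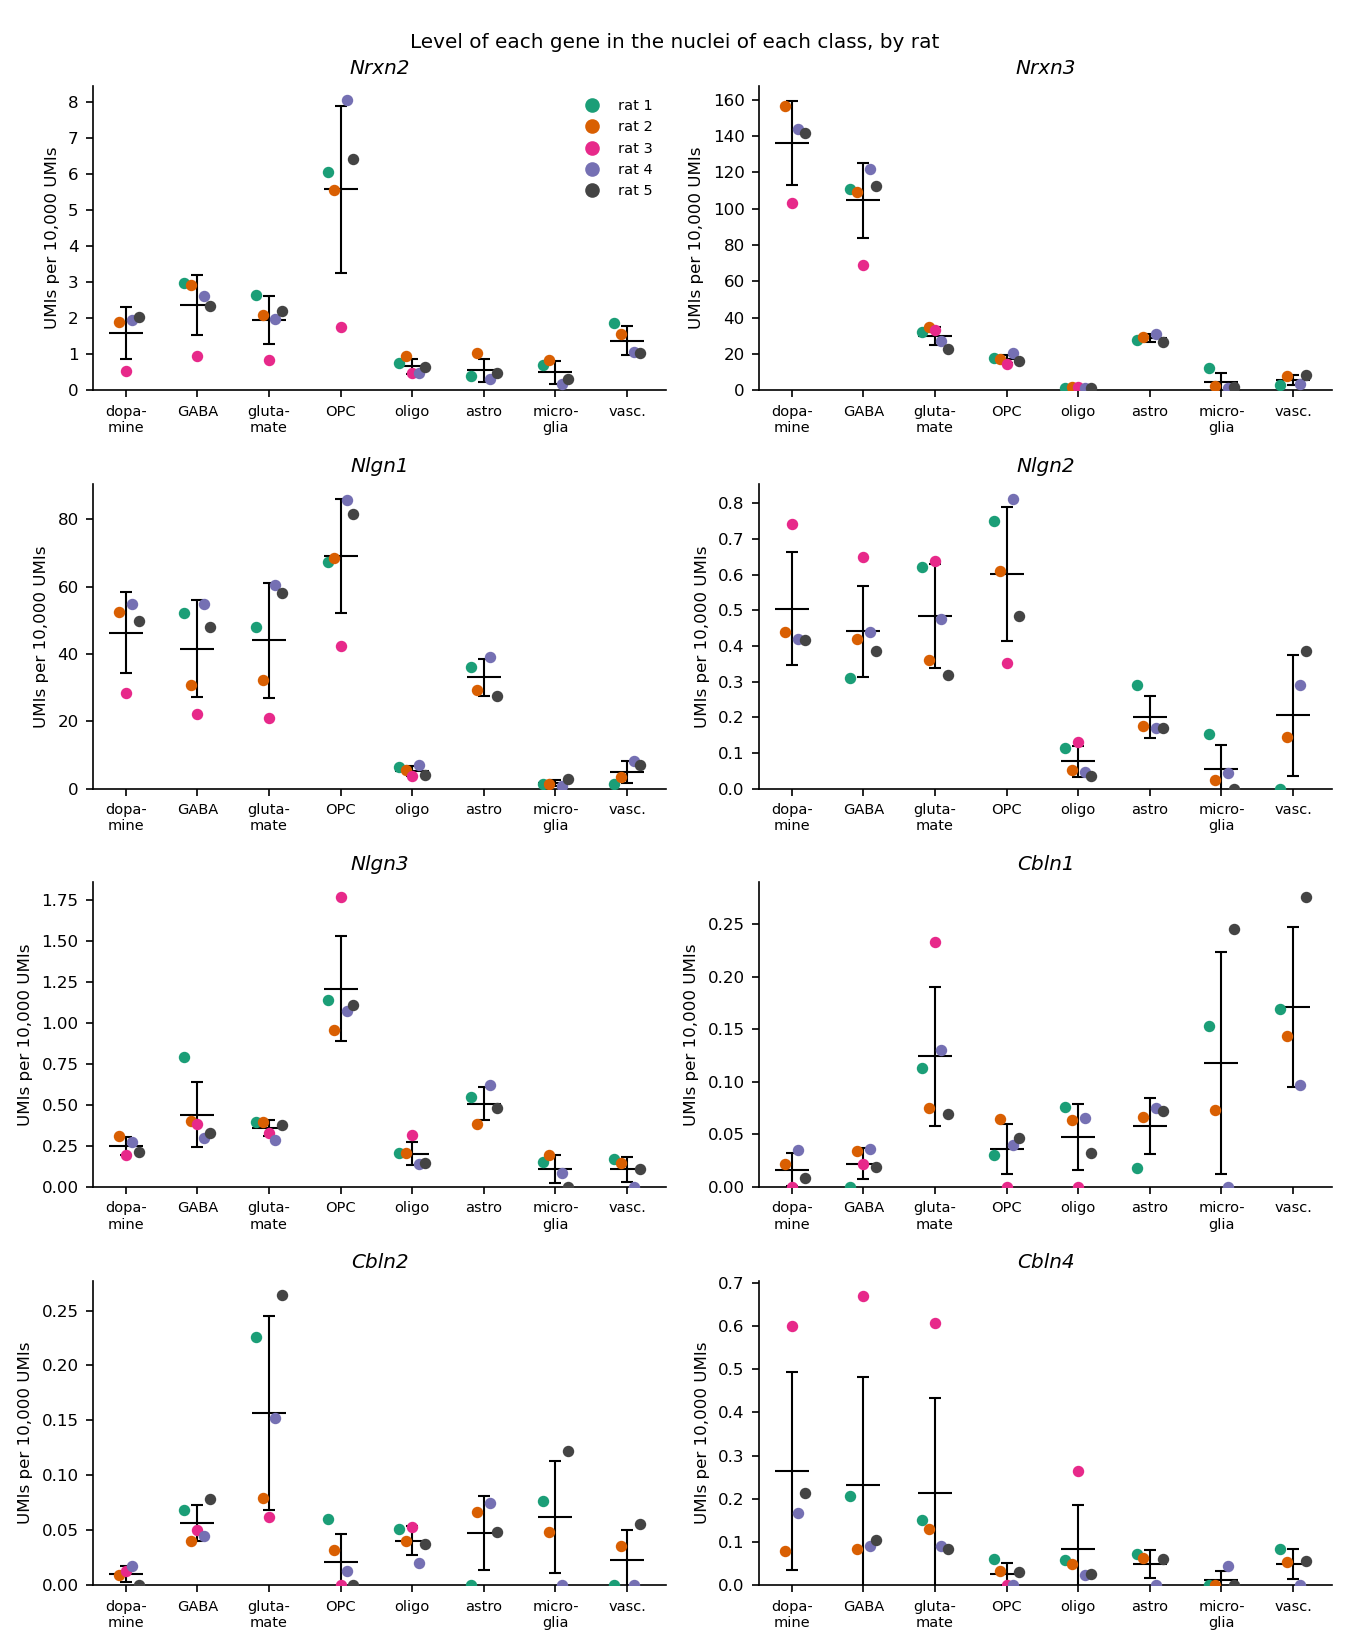
Level of each of the 8 genes in UMIs per 10000 UMIs (y axis, linear, starting at 0) in each class of nuclei (x axis), with 1 point per rat, the mean as a horizontal line and the SD over rats as the bar. *Nrxn3* was highest in dopamine-like and GABA-like nuclei, *Nrxn2*, *Nlgn1* and *Nlgn3* in OPC-like nuclei, and rat 3 carried the highest *Cbln4* value of each neuron class.

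*Nrxn2* had another distribution, with its highest mean in OPC-like nuclei rather than in a neuron class. It was measured there at 6.07, 5.57, 1.77, 8.05 and 6.43 UMIs per 10000 in rats 1 to 5. GABA-like nuclei stood at 2.98, 2.93, 0.949, 2.61 and 2.33, and rat 3 was the lowest in both. Within every one of the 5 rats the OPC-like value was above each neuron class, although the class ranges overlapped, since the GABA-like values of 4 rats lay above the OPC-like value of rat 3. That value came from 22 nuclei with 28309 UMIs of all genes. The mean was 5.58 ± 2.32 (SD, n = 5) with rat 3 and 6.53 ± 1.07 (SD, n = 4) without it. Compared with the mean of the 3 neuron classes, *Nrxn2* was 3.003-fold higher in OPC-like nuclei (log2 1.59, SE 0.15, edgeR adjusted p = 1.55e-10, higher in 5 of 5 rats), and without rat 3 the log2 difference was 1.60. It was 7.91-fold higher than in oligodendrocyte-like nuclei (log2 2.98, adjusted p = 1.72e-14) and 10.6-fold higher than in astrocyte-like nuclei (log2 3.41, adjusted p = 6.42e-14). With nuclei typed by their own markers these log2 differences were 2.62 and 2.85, and with free RNA subtracted 3.96 and 4.71, where the astrocyte-like level was 0.221 in place of 0.552 UMIs per 10000. Droplets of fewer than 100 UMIs, which hold no nucleus, held *Nrxn2* at 1.502 to 2.302 (mean 1.91), above the means of dopamine-like (1.60) and oligodendrocyte-like nuclei (0.661), and in rat 3 at 1.79, beside 1.77 in its OPC-like nuclei. In nuclei thinned to 1000 UMIs each, which sets every class to 1 depth, 40.6% ± 12.2 of OPC-like nuclei had an *Nrxn2* UMI (SD, n = 5), against 21.2% ± 6.61 of GABA-like and 6.38% ± 1.41 of oligodendrocyte-like nuclei. The unthinned shares were 73.4%, 69.0% and 18.7%, at pooled median depths of 3509, 5140 and 2863 UMIs.

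The 3 neuroligin genes also had their highest means in OPC-like nuclei. *Nlgn1* stood at 67.3, 68.4, 42.4, 85.9 and 81.6 UMIs per 10000 there in rats 1 to 5. *Nlgn2* stood at 0.751, 0.611, 0.353, 0.812 and 0.482. *Nlgn3* stood at 1.14, 0.954, 1.77, 1.07 and 1.11, where the value of rat 3 was the highest but came from 5 UMIs in 22 nuclei. The *Nlgn3* values of OPC-like nuclei lay above every value of every other class, whereas those of *Nlgn1* and *Nlgn2* overlapped the neuron classes. In the comparison of OPC-like nuclei with neurons, 48.5% of all genes were called, 23.1% as higher and 25.4% as lower in OPC-like nuclei. Of the 6 members tested, 4 were higher (*Nrxn2*, *Nlgn1*, *Nlgn2* and *Nlgn3*) and 2 were lower (*Nrxn3* and *Cbln4*). The median log2 difference of the 6 was 0.59 and that of all genes -0.02.

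*Nlgn3* had the largest of the 3 neuroligin differences from neurons, at 3.35-fold (log2 1.75, SE 0.15, edgeR adjusted p = 1.27e-11, higher in 5 of 5 rats). *Nlgn1* was 1.496-fold higher (log2 0.58, SE 0.14, adjusted p = 0.000553, 5 of 5 rats) and *Nlgn2* 1.504-fold higher (log2 0.59, SE 0.16, adjusted p = 0.0031, 4 of 5 rats, rat 3 being the exception). The OPC-like sum of rat 3 held 28309 UMIs of all genes, so its *Nlgn2* value rests on few UMIs. The call of *Nlgn2* was lost with no replicate block (log2 0.41, adjusted p = 0.269), with free RNA subtracted (log2 0.58, adjusted p = 0.0742) and without rat 4 (log2 0.42, adjusted p = 0.084). The neuron markers summed to 7.77 to 16.9 UMIs per 10000 in OPC-like nuclei, against 42.9 to 134 in the neuron classes, and their part in the result was not tested.

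Against oligodendrocyte-like nuclei, where 49.8% of all genes were called and 24.3% were higher and 25.5% lower in OPC-like nuclei, 5 of the 6 members were higher in OPC-like nuclei. The log2 differences of the neuroligins were 3.43 for *Nlgn1* (SE 0.18, adjusted p = 3.47e-17), 3.31 for *Nlgn2* (SE 0.21, adjusted p = 2.09e-15) and 2.40 for *Nlgn3* (SE 0.17, adjusted p = 7.85e-14). Each was higher in 5 of 5 rats and the ranges did not overlap. *Cbln4*, the sixth gene, was at -0.83 (SE 0.60, adjusted p = 0.256). The median over the 6 members was 3.15, and over all genes -0.10.

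Astrocyte-like nuclei were also below OPC-like nuclei in the neuroligins. In that comparison, where 37.8% of all genes were called (18.4% higher and 19.4% lower in OPC-like nuclei), 5 of the 6 members passed the test, and OPC-like nuclei were higher in *Nlgn1* by 1.11 (SE 0.18, edgeR adjusted p = 5.64e-06), in *Nlgn2* by 1.71 (SE 0.24, adjusted p = 3.18e-07) and in *Nlgn3* by 1.15 on the log2 scale (SE 0.20, adjusted p = 1.03e-05), each in 4 of 4 rats. With nuclei typed by their own markers the *Nlgn1* difference missed the threshold (adjusted p = 0.0861). Compared with neurons, a contrast in which 62% of all genes were called (31.3% higher and 30.7% lower in astrocyte-like nuclei), astrocyte-like nuclei were lower in *Nrxn2* (log2 -1.83), *Nrxn3* (-1.38), *Nlgn2* (-1.12), *Cbln4* (-1.14) and *Nlgn1* (-0.53), and higher in *Nlgn3* (0.60, SE 0.17, adjusted p = 0.00357, 3 of 4 rats). Over the alternatives the difference of *Nrxn2* ran from -1.39 to -2.97 and that of *Cbln4* from -0.79 to -4.43. The *Nlgn1* call was lost without the replicate block (log2 -0.36, edgeR adjusted p = 0.298) and with nuclei typed by their own markers (log2 -0.11, adjusted p = 0.819). That of *Nlgn3* was lost with nuclei thinned to 1000 UMIs (log2 0.59, adjusted p = 0.107) and without rat 4 (log2 0.39, adjusted p = 0.0767). Those of *Nrxn3*, *Nlgn2* and *Cbln4* were each lost in 1 alternative. These were free RNA subtracted for *Nrxn3* (log2 -1.23, adjusted p = 0.200), thinned nuclei for *Nlgn2* (log2 -0.73, adjusted p = 0.132) and typing by own markers for *Cbln4* (log2 -0.79, adjusted p = 0.116). In oligodendrocyte-like nuclei, 6 of 6 members were called lower than in neurons, in a contrast where 76.3% of all genes were called (39.7% higher and 36.6% lower in oligodendrocyte-like nuclei), with log2 differences from -0.65 for *Nlgn3* to -5.48 for *Nrxn3*. *Nlgn3* was lower in 4 of 5 rats and higher in 1, and each of the others was lower in 5 of 5.

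Among the 3 neuron classes, no neuroligin passed the test, apart from *Nlgn3* between dopamine-like and GABA-like nuclei with no filter. *Nlgn1* had means of 46.3 ± 12.03 in dopamine-like (SD, n = 4), 44.0 ± 17.0 in glutamate-like (SD, n = 5) and 41.5 ± 14.4 UMIs per 10000 in GABA-like nuclei (SD, n = 5). By a normal approximation from the SE, the 95% interval of its log2 difference between GABA-like and glutamate-like nuclei ran from -0.37 to 0.28. That of *Nlgn2* ran from -0.27 to 0.37. *Nlgn2* was at 0.504 ± 0.158, 0.483 ± 0.146 and 0.441 ± 0.127 in the same order of classes, and *Nlgn3* at 0.246 ± 0.0541, 0.356 ± 0.0481 and 0.439 ± 0.200. Droplets of fewer than 100 UMIs held *Nlgn3* at a mean of 0.337, above the dopamine-like mean. Rat 3 stood at 0.689 in this and the other rats at 0.211 to 0.332. Dopamine-like nuclei were above the droplets of the same rat in rat 2 (0.310 against 0.211) and rat 4 (0.271 against 0.228). They were below in rat 3 (0.191) and rat 5 (0.212 against 0.225). The dopamine-like values of *Nlgn3* were below the GABA-like value of the same rat in 4 of 4 rats.

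**Figure D2:**
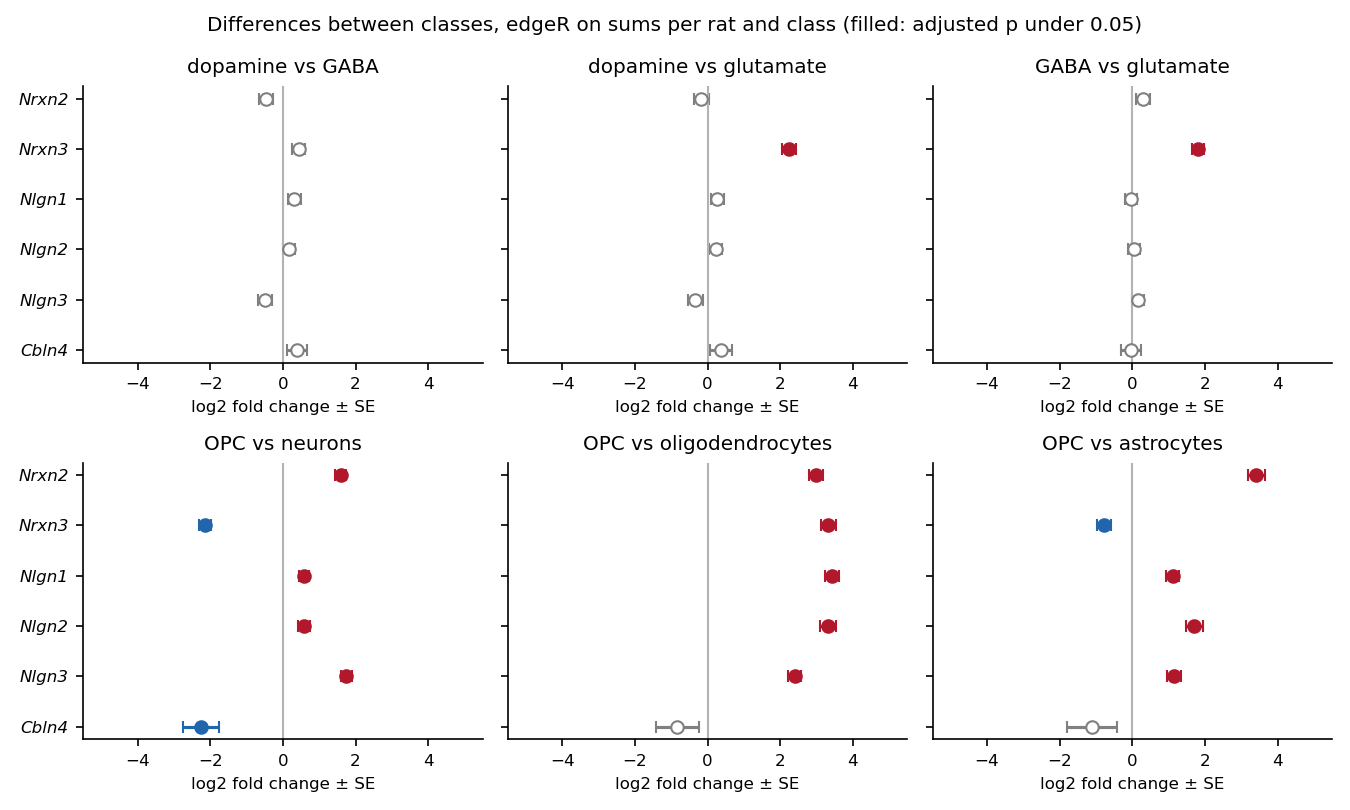
Log2 fold changes with their standard errors (x axis) of the 6 members that passed the filter on low counts (y axis), in 6 comparisons between classes, from edgeR's quasi-likelihood test on sums per rat and class. Filled points passed an adjusted p of 0.05, red for higher and blue for lower in the first class named. Of the comparisons among neurons, those with glutamate-like nuclei had *Nrxn3* past the threshold, where 15.6% (dopamine-like) and 4.47% (GABA-like) of all genes passed. Between dopamine-like and GABA-like nuclei 0 members and 18.8% of all genes passed. For OPC-like nuclei against neurons, oligodendrocyte-like and astrocyte-like nuclei, 6, 5 and 5 members passed, beside 48.5%, 49.8% and 37.8% of all genes.

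Since the neuroligins shared their highest class, the 250 bases before their annotated starts are shown, as given by RefSeq for the build GRCr8. The tables used here held promoters for 5 of the 8 members. Capitals mark matches to a GC box (GGGCGG on either strand), which 30.5% of 33469 promoters of the same length held. The windows are chr2:110930677-110930926 on the minus strand for *Nlgn1*, chr10:55056579-55056828 on the minus strand for *Nlgn2* and chrX:70469228-70469477 on the plus strand for *Nlgn3*.
Nlgn1: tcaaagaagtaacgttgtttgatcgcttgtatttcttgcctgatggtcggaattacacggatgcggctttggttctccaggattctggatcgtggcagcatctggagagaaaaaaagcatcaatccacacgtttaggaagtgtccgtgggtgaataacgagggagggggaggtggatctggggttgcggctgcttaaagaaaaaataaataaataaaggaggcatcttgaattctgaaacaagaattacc
Nlgn2: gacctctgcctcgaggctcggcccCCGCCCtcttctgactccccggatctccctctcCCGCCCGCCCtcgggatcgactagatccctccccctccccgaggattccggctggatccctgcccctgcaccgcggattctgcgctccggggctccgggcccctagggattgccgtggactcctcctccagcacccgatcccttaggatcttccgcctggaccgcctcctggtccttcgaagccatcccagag
Nlgn3: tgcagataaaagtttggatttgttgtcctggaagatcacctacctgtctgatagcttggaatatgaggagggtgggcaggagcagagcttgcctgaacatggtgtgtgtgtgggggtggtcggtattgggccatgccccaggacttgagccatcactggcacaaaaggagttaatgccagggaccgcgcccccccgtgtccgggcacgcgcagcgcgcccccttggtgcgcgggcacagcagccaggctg
The *Nlgn2* window held 3 GC box matches, of which 2 overlap, and the other two windows held 0. GC content was 44.4% for *Nlgn1*, 69.2% for *Nlgn2* and 60% for *Nlgn3*, against a median of 51.2% over all promoters. None of the 3 windows held the letters ACAATG or ACAAAG, which SOX factors bind and 25.3% of promoters held, or the E-box CAGCTG, which 11.97% held, on either strand.

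The cerebellins were sparse, and in droplets with no nucleus the mean level of each of the 3 was higher than in any class of nuclei. In these droplets, of fewer than 100 UMIs, *Cbln1* stood at 0.181 to 0.623, *Cbln2* at 0.155 to 0.366 and *Cbln4* at 0.163 to 3.20 UMIs per 10000. Oligodendrocyte-like nuclei, taken as the class that shows the background within nuclei, stood at means of 0.0474 for *Cbln1*, 0.0405 for *Cbln2* and 0.0839 for *Cbln4*, which was 0.0391 without rat 3. *Cbln1* and *Cbln2* did not pass the filter on low counts in the fit of 6 classes, so the fit of the 3 neuron classes alone, chosen after seeing the data, is given for them. It could not be run for these genes after subtraction of free RNA.

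*Cbln2* was highest in glutamate-like nuclei. Its values there were 0.226, 0.0793, 0.0622, 0.152 and 0.264 UMIs per 10000 in rats 1 to 5. In GABA-like nuclei they were 0.0686, 0.0403, 0.0499, 0.0449 and 0.0783, and in the dopamine-like nuclei of rats 2 to 5 they were 0.00885, 0.0128, 0.0175 and 0. The glutamate-like value was the higher one within each of the 5 rats, and the dopamine-like nuclei of 4 rats held 5 UMIs in all. The 0 of rat 5 allows a level of up to 0.0236, taking 3 UMIs as the most that a count of 0 allows, for counting error only. In the fit of the 3 neuron classes, *Cbln2* was lower in dopamine-like than in glutamate-like nuclei by -3.67 on the log2 scale (edgeR adjusted p = 3.46e-05), lower in GABA-like than in glutamate-like nuclei by -1.32 (adjusted p = 0.00857) and lower in dopamine-like than in GABA-like nuclei by -2.35 (adjusted p = 0.00416). In fits of 6 classes under other settings, 7 of which kept *Cbln2*, the difference between GABA-like and glutamate-like nuclei was not called with doublets kept (-0.59, adjusted p = 0.642), with libraries centred (-0.68, adjusted p = 0.625) or with nuclei typed by their own markers (-1.43, adjusted p = 0.782). That between dopamine-like and GABA-like nuclei was not called with own markers (-0.83, adjusted p = 0.587). After subtraction of free RNA the means were 0.137 in glutamate-like, 0.0201 in GABA-like and 0 in dopamine-like nuclei.

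*Cbln1* was also higher in glutamate-like nuclei than in the other two neuron classes, at 0.124 ± 0.0661 UMIs per 10000 (SD, n = 5) against 0.022 ± 0.0144 in GABA-like (SD, n = 5) and 0.0162 ± 0.0155 in dopamine-like nuclei (SD, n = 4). The glutamate-like values lay above the measured values of both classes, but the 0 of rat 1 in GABA-like nuclei, of which there were 34, allows up to 0.103, above the glutamate-like values of rats 2 and 5 (0.0753 and 0.0694). The log2 differences from glutamate-like nuclei were -2.46 for dopamine-like (edgeR adjusted p = 0.00162) and -1.85 for GABA-like nuclei (adjusted p = 0.00445), in fits where 20.1% and 6.46% of all genes were called. With nuclei typed by their own markers, the second was -2.56 and missed the threshold (adjusted p = 0.139). That typing put *Cbln1* at 0.456 in glutamate-like and 0.0829 in dopamine-like nuclei, and subtraction of free RNA at 0.0727 and 0. The GABA-like and dopamine-like means lay below the oligodendrocyte-like background of 0.0474. *Cbln1* had its highest mean in vascular-like nuclei, at 0.171 ± 0.0759 (SD, n = 4), from 16 UMIs. Vascular-like nuclei also held the dopamine markers at 6.76 to 13.4 UMIs per 10000, against 1.65 to 6.35 in oligodendrocyte-like nuclei. The gap lay largely in *Ddc* (means of 5.02 and 0.644), while *Th* stood at 1.90 and 1.02 and *Slc6a3* at 2.09 and 0.904. Subtraction of free RNA left *Cbln1* at 0.118 in vascular-like nuclei.

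*Cbln4* had UMIs in each neuron class and was lower in OPC-like, astrocyte-like and oligodendrocyte-like nuclei than in neurons. Its neuron levels were below the droplets of the same rat, except in the dopamine-like nuclei of rat 4 (0.166 against 0.163). Without rat 3 its means were 0.153 in dopamine-like, 0.121 in GABA-like and 0.114 in glutamate-like nuclei. The dopamine-like nuclei of rats 2 to 5 stood at 0.0796, 0.6, 0.166 and 0.212 UMIs per 10000. GABA-like nuclei of rats 1 to 5 stood at 0.206, 0.0839, 0.671, 0.0898 and 0.103, and glutamate-like nuclei at 0.151, 0.131, 0.607, 0.0895 and 0.0833. Rat 3 was the highest in each class, and its droplets of fewer than 100 UMIs stood at 3.20, against 0.163 to 0.319 in the other rats. OPC-like nuclei held 7 UMIs in all 5 rats and were 4.77-fold below neurons (log2 -2.25, SE 0.50, edgeR adjusted p = 0.00034). The 0 of rat 3 there allows up to 1.06, above its neuron levels, so that rat shows no direction, and the other 4 rats were lower, with a difference of -2.16 without rat 3 (adjusted p = 0.00167). Over the alternatives it ran from -1.39 with nuclei typed by their own markers to -7.07 with free RNA subtracted, which left OPC-like nuclei at 0, so the fold depends on the setting. Oligodendrocyte-like nuclei were 2.68-fold below neurons (log2 -1.42, SE 0.23, adjusted p = 1.52e-06, lower in 5 of 5 rats), with a range of -1.20 to -4.85 under the same settings, the latter at an oligodendrocyte-like level of 0.00311. No difference of *Cbln4* among the neuron classes passed the test, with log2 values from -0.03 to 0.40. With doublets kept, that between dopamine-like and GABA-like nuclei did (0.76, adjusted p = 0.0442), the only 1 of 13 alternatives.

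**Figure D3:**
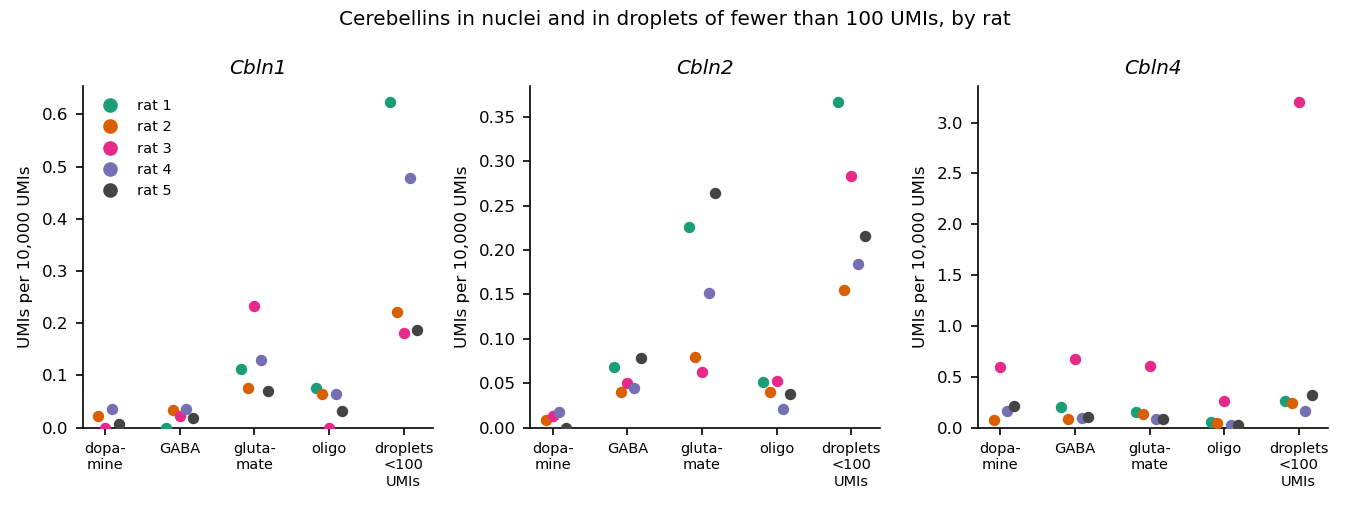
Levels of the 3 cerebellins in UMIs per 10000 UMIs (y axis, linear, starting at 0, with its own range for each gene) in 3 neuron classes, in oligodendrocyte-like nuclei and in droplets of fewer than 100 UMIs (x axis), with 1 point per rat. *Cbln1* and *Cbln2* were highest in glutamate-like nuclei among the 4 classes drawn, and the droplets of rat 3 stood at 3.20 for *Cbln4*.

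The cerebellins were also counted within single neurons, where their detection was sparse and whether pairs were more or less frequent than chance was not tested. Of 1072 glutamate-like nuclei, 62 had a UMI of *Cbln1*, 71 of *Cbln2* and 89 of *Cbln4*, and 2 had both *Cbln1* and *Cbln2*, 11 *Cbln1* and *Cbln4*, and 4 *Cbln2* and *Cbln4*. Of 880 dopamine-like nuclei, 95 had *Cbln4*, 11 *Cbln1* and 5 *Cbln2*, with 1 pair. Of 2315 GABA-like nuclei, 172 had *Cbln4*, 63 *Cbln2* and 35 *Cbln1*, with 7 pairs. The mean share of nuclei with a UMI over rats was 10.0% for *Cbln2* in glutamate-like nuclei and 1.38% in oligodendrocyte-like nuclei, at pooled median depths of 5637 and 2863 UMIs, and thinning to 1000 UMIs brought them to 1.26% and 0.399%. For *Cbln1* the share was 6.65% in glutamate-like and 1.90% in oligodendrocyte-like nuclei, and the 1.54% of dopamine-like and 1.44% of GABA-like nuclei were below that background. For *Cbln4* it was 12.1% in dopamine-like, 8.88% in GABA-like and 8.17% in glutamate-like nuclei against 2.02% in oligodendrocyte-like nuclei, and after thinning 2.84%, 1.63% and 1.34% against 0.784%. The pooled median depth was 5267.5 UMIs in dopamine-like and 5140.0 in GABA-like nuclei. Rat 3, with the highest *Cbln4* in its droplets, gave 40 of the 95 dopamine-like nuclei with a UMI, 78 of the 172 GABA-like and 34 of the 89 glutamate-like. It also gave 361 of all 880 dopamine-like nuclei, 781 of 2315 GABA-like and 351 of 1072 glutamate-like.

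The sub-clusters of neurons showed where within the classes the genes lay. Of 46 sub-clusters, 36 held at least 50 nuclei, 11 of these were mostly rat 3, and 17 had at least 10 nuclei of each of at least 3 rats. These 17 are described below by their leading genes, with values as means over rats and with no test. *Nrxn3* ranged 13.3-fold over them, from 13.2 to 175 UMIs per 10000. Its 3 dopamine-like sub-clusters stood between 138 and 175, its 6 GABA-like sub-clusters between 85.6 and 170, and its 3 glutamate-like sub-clusters between 13.2 and 38.1. Sub-clusters of no named class spanned 29.1 to 165, and those led by *Slc26a7* (165) and *Adgrv1* (84.1) had glutamate as their first and dopamine as their second marker score. The dopamine-like sub-cluster led by *Tmem207*, *Ntf3* and *Chrnb3* was the highest of the 17, at 170 to 179 over its 3 rats, and the glutamate-like sub-cluster led by *Reln* the lowest, at 5.71 to 19.5.

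*Nlgn1* was arranged otherwise, with its highest levels in the GABA-like sub-cluster led by *Egflam* and *Sox14* (67.0 UMIs per 10000) and in the *Reln* glutamate-like sub-cluster (65.5), which had the lowest *Nrxn3*. Its lowest levels were 22.7 in both a GABA-like sub-cluster led by *Nox4* and *Meis2* and a sub-cluster of neurons of no named class led by *Sox6* and *Corin*. The *Nox4* sub-cluster had the highest *Nrxn2*, at 3.84. Of the neurexins and neuroligins, *Nlgn2* and *Nlgn3* varied least, 2.15-fold and 2.13-fold between the lowest and the highest sub-cluster.

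Within the glutamate-like nuclei *Cbln1* and *Cbln2* were highest in different sub-clusters. The *Reln* sub-cluster had 38 UMIs of *Cbln1* and 4 of *Cbln2* (0.289 and 0.0339 UMIs per 10000). The sub-cluster led by *Angpt1* and *Sntb1* had 14 UMIs of *Cbln1* and 45 of *Cbln2* (0.0516 and 0.260), and that led by *Hs6st3* and *Sox5* had 3 and 27 (0.0282 and 0.211). Outside that class, *Cbln1* was at 0.337 in a sub-cluster of no named class led by *Adgrv1* and *Casr*, which had 0 UMIs of *Cbln2*. Both genes were present in another of no named class, led by *Slc26a7* and *Npsr1*, with 30 UMIs of *Cbln1* and 30 of *Cbln2* (0.166 and 0.160). *Cbln4* was highest in the *Egflam* and *Sox14* GABA-like sub-cluster, at 0.359 to 0.392 over its 3 rats, and in a sub-cluster of no named class led by *Col24a1* and *Klhl14*, at 0.333. Of the dopamine-like sub-clusters, that led by *Aldh1a1* had 0.233 and the other two 0.129 and 0.102. Among sub-clusters mostly of rat 3, *Cbln4* reached 2.79 in a GABA-like sub-cluster of 77 nuclei led by *Itga6* and *Ikzf1*, 75 of them of rat 3, and *Cbln4* was itself among the leading genes there.

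**Figure D4:**
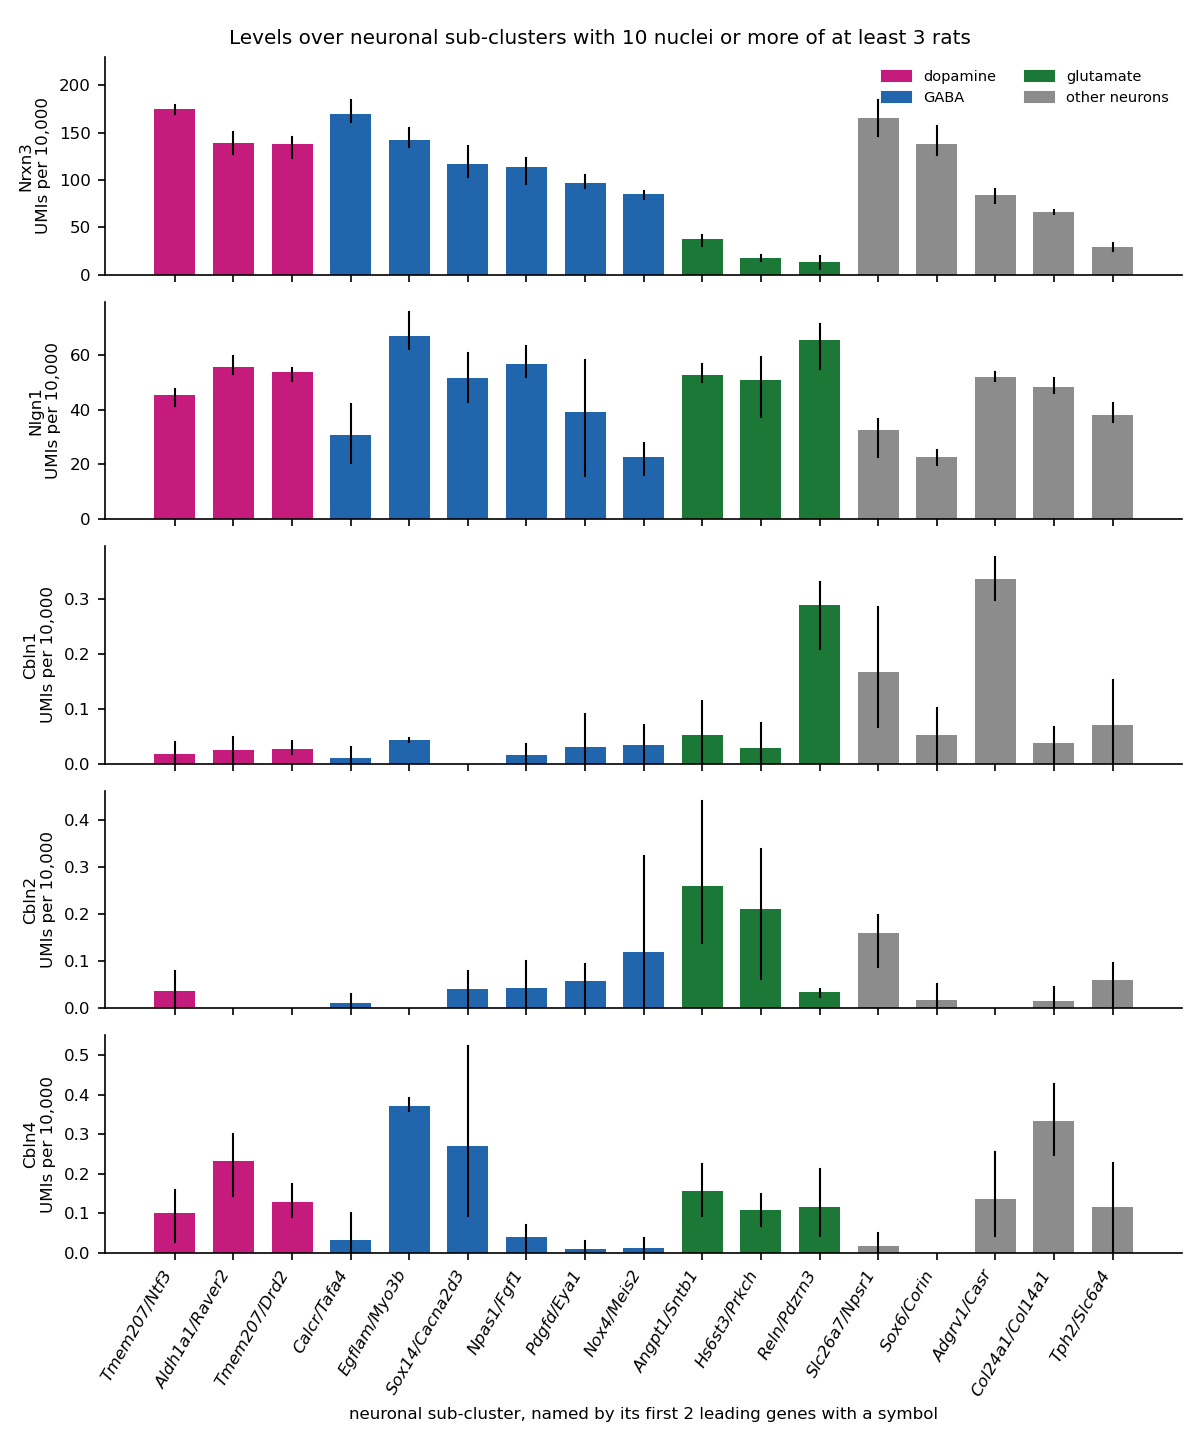
Levels of *Nrxn3*, *Nlgn1* and the 3 cerebellins in UMIs per 10000 UMIs (y axis, linear, starting at 0) over the 17 neuronal sub-clusters with at least 10 nuclei of at least 3 rats (x axis), with bars for the mean over rats and lines from the lowest to the highest rat, coloured by class. *Nrxn3* stood at 13.2 to 38.1 in the glutamate-like bars, below each dopamine-like and GABA-like bar, and *Cbln1* and *Cbln2* were high in different glutamate-like sub-clusters.

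The genes with the pattern most like each member were sought by Pearson's r of log2(level + 0.01), with levels in UMIs per 10000, over the 36 sub-clusters, among 7474 genes (7475 for *Cbln1* and *Cbln2*) with a mean of at least 0.2 UMIs per 10000. *Nrxn2* was most like *Ensa* (r = 0.91), *Map1b* and *Hsp90ab1*, *Nlgn1* like *Gng4* (r = 0.85), *Fat3* and *RGD1306271*, and *Cbln4* like *Ap4e1* (r = 0.80), *AABR07063281.1* and *Fbxl2*. *Nlgn2* was most like *Hdgfl3* (r = 0.73), *Stat5b* and *Pex3*, and *Nlgn3* like *Nectin2* (r = 0.63), *Pard3* and *Commd1*. *Nrxn3* was most like *Stac* (r = 0.62), *Whrn* and *Hdac9*, *Cbln1* like *C1ql1* (r = 0.63), *Wdpcp* and *Sema3d*, and *Cbln2* like *Ppp4r4* (r = 0.62), *Tac1* and *Taok2*. The sub-clusters share libraries, and depth differs between those of rat 3 and the rest. Over the 17 sub-clusters of at least 3 rats, 1 of these 24 genes, *Ppp4r4* with *Cbln2*, was again among the 3 most alike, so the lists rest on the choice of sub-clusters.

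Of 37 listed partner genes, 36 were in the tables and 34 passed the filter. Against the backgrounds given above, 4 were higher and 11 lower in dopamine-like than in GABA-like nuclei, 5 higher and 15 lower in dopamine-like than in glutamate-like nuclei, and 13 higher and 13 lower in OPC-like nuclei than in neurons. *Grid1*, which encodes a receptor of the glutamate delta family, was lower in dopamine-like than in GABA-like nuclei by -0.73 on the log2 scale (SE 0.15, edgeR adjusted p = 0.000397) and higher in OPC-like nuclei than in neurons by 0.87 (SE 0.12, adjusted p = 2.19e-07). The regulators *Mdga1* and *Mdga2*, which bind neuroligins and keep neurexins off them, were both lower in dopamine-like nuclei, by -2.88 and -0.99 against glutamate-like and by -1.90 and -0.83 against GABA-like nuclei.

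Of the 15 other neurexin ligands tested, 7 were lower and 2 higher in dopamine-like than in glutamate-like nuclei, where 7.71% of all genes were lower and 7.88% higher. The neurexophilins *Nxph4* and *Nxph1* (log2 -3.17 and -1.64) and the C1q-like *C1ql1* (-1.99) were among those lower, and the calsyntenin *Clstn2* was higher (2.09). In OPC-like nuclei against neurons 7 were higher and 4 lower, beside 23.1% and 25.4% of all genes, led by *C1ql1* (4.44, SE 0.22, edgeR adjusted p = 6.35e-18) and *C1ql2* (3.47) on one side and *Adgrl2* (-4.46) and *Clstn2* (-3.30) on the other. *Lrrtm4*, a postsynaptic neurexin ligand, was at 48.3 UMIs per 10000 in OPC-like nuclei and 0.777 in oligodendrocyte-like nuclei, a log2 difference of 5.71 (adjusted p = 1.17e-17).

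*Cask*, which binds the neurexin tail, was higher in OPC-like nuclei than in neurons (log2 1.60, SE 0.10, edgeR adjusted p = 4.25e-15), whereas the adaptors *Apba1* (-1.29), *Lin7b* (-0.77) and *Lin7a* (-0.75) were lower. *Apba1* was higher in dopamine-like nuclei than in glutamate-like nuclei (1.39, adjusted p = 1.49e-08) and in GABA-like nuclei (adjusted p = 1.71e-09). Of the 9 postsynaptic scaffolds, 6 were lower in OPC-like nuclei than in neurons, with *Shank3* (-2.22), *Shank2* (-1.51), *Shank1* (-1.34) and *Dlg2* (-1.05) first, and 2 were higher, where 25.4% of all genes were lower and 23.1% higher. Against oligodendrocyte-like nuclei 8 of the 9 were higher in OPC-like nuclei, as were 24.3% of all genes, *Dlgap1* by 4.48 and *Shank2* by 3.36.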

How the data were processed

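Nuclei of the VTA of 5 rats were profiled by droplet sequencing (10x 3' v3.1), 1 library per rat. The authors deposited unfiltered matrices of whole-number UMI counts per gene and barcode, made with Cell Ranger 8.0.1 per the labels, before any correction for free RNA or removal of doublets. The genome build, annotation and treatment of intronic reads are not given in the sources used here. Total UMIs per library ran from 10193355 to 88576210, and 50 barcodes were shared by 2 libraries and 0 by 3.

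The calls of Scrublet's threshold marked 0% to 0.22% of barcodes and did not work, so the barcodes with the highest scores were removed at 0.8% per 1000 barcodes (1068 in all). Nuclei were clustered with scanpy 1.11.5 and leidenalg 0.10.2 (2000 variable genes, 30 components, 20 neighbours, resolution 1.0, and 2.0 for neurons). Clusters were named from marker lists. The scoring rule, the resolution for neurons, the exclusion of serotonin and mixed glial clusters, and counting the 3 markers needed over neuron and class markers together were set after clusters were seen. Clusters left out held 4043 barcodes, and neurons of no named class 1180.

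UMIs were summed per rat and class with at least 20 nuclei (28 sums), and genes passing filterByExpr (11771) were tested with edgeR 4.0.16 in R 4.3.3 by the quasi-likelihood test, with classes as groups and the rat as a block, adjusted over all genes by Benjamini-Hochberg. Each SE of an edgeR difference is the size of the log2 difference divided by the square root of the test's F statistic. The script was tested on simulated data. Classes come from the same animals, and same-rat deviations from class means correlated at 0.108 to 0.820 (median 0.414, 65 pairs). The labels number separate rats. With the rat as a block, p-values are set against the spread of class differences among these 5 animals, estimated over all classes of the fit. Dopamine-like and astrocyte-like nuclei had sums of 4 of the rats. Free RNA was estimated from droplets of fewer than 100 UMIs and dopamine markers in oligodendrocyte-like nuclei, at 8.46% to 29.0% of UMIs per library.

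The named genes are the members, partner genes by role (up to 4 per role and comparison, by size of change) and the 3 genes most alike to each member. The members and lists were chosen with earlier results of these data known. Alternatives were DESeq2 1.42.0, other size factors, no filter, no block, free RNA subtracted, doublets kept, thinning to 1000 UMIs, typing by own markers, centred libraries and leaving out each rat. The fits of the 3 neuron classes only, and the restriction to sub-clusters of at least 3 rats, were chosen after seeing the data. Results for some listed genes are not reported here.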

Additional observations from a re-analysis of the deposited data

Results flagged for a closer look

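Of 64 groups of 4 or 5 rats (1 gene in 1 class), 13 held a highest or lowest rat far from the others by Dixon's test, and 7 of the 13 were values of rat 3. Chance flags about 1 in 20 groups of independent, normally spread values. These groups share the same rats and some rest on few UMIs, so 13 of 64 cannot be read as an excess over chance. In dopamine-like nuclei, *Nrxn2* of rat 3 was low at 0.523 UMIs per 10000 (others 1.89 to 2.04) and *Nlgn2* of rat 3 was high at 0.74 (others 0.417 to 0.438). In GABA-like nuclei, *Nrxn3* of rat 3 was low at 69 (others 109 to 122), *Cbln4* of rat 3 was high at 0.671 (others 0.0839 to 0.206), and *Nlgn3* of rat 1 was high at 0.789 (others 0.296 to 0.4). *Cbln4* of rat 3 was also high in glutamate-like nuclei at 0.607 (others 0.0833 to 0.151) and in oligodendrocyte-like nuclei at 0.263 from 10 UMIs (others 0.0233 to 0.0583).

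In OPC-like nuclei, *Nlgn3* of rat 3 was high at 1.77 from 5 UMIs in 22 nuclei (others 0.954 to 1.14). In astrocyte-like nuclei, *Nlgn2* of rat 1 was high at 0.29 (others 0.168 to 0.175), *Cbln1* of rat 1 was low at 0.0181 from 1 UMI (others 0.0668 to 0.0751), and *Cbln4* of rat 4 was 0 (others 0.0602 to 0.0726). In microglia-like nuclei, *Nrxn3* of rat 1 was high at 12.4 from 32 nuclei (others 1.26 to 2.48), and *Cbln4* of rat 4 was 0.0434 from 1 UMI while the others were 0.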

How the results depend on the processing

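Of 700 alternative values of 48 log2 differences, 661 kept their direction and side of the threshold, 17 fell short of it, 9 passed it and 13 changed sign, none of these a called difference. Of the alternative levels, 590 moved by no more than the SD between rats and 50 by more. Leaving out 1 rat cannot move a mean by more than that SD. The 64 levels of each such setting therefore could not count as moved and do not bear on stability. Of the 64 levels under each other setting, 20 moved by more with own markers and 16 with free RNA subtracted. With thinning 8 did, with centred libraries 5 and with doublets kept 1. With no replicate block, the genes called fell to 956 (dopamine-like against GABA-like), 743 (dopamine-like against glutamate-like), 153 (GABA-like against glutamate-like), 3699 (OPC-like against neurons), 3835 (against oligodendrocyte-like) and 2809 (against astrocyte-like). With thinning they fell to 938, 742, 250, 2818, 3456 and 2294 in that order, and to 3990 and 5424 for astrocyte-like and oligodendrocyte-like nuclei against neurons. With nuclei typed by their own markers the 3 neuron comparisons gave 1001, 641 and 49, and GABA-like against glutamate-like nuclei gave 882 with no filter and 223 with free RNA subtracted.

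Members called between dopamine-like and GABA-like nuclei (0) became 4 with no filter, 2 with doublets kept, 1 with thinning or centred libraries, 3 in the neurons alone and 1 in these with free RNA subtracted. Between dopamine-like and glutamate-like nuclei (1) they became 3 with no filter, doublets kept, own markers, centred libraries or neurons alone, and 0 with free RNA subtracted. Between GABA-like and glutamate-like nuclei (1) they became 3 with no filter or neurons alone, 2 with doublets kept or centred libraries, and 0 with free RNA subtracted or own markers. For OPC-like against astrocyte-like nuclei 5 became 3 with own markers, and for astrocyte-like nuclei against neurons 6 became 3 with thinning. The sets of genes tested differ between these fits, and the shares of all genes called are not given beside these counts. The counts are therefore not a result about the members. The causes were not tested.

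Leaving out each rat gave 1581 to 2248, 1293 to 1829 and 371 to 517 genes in the 3 neuron comparisons, 4694 to 6017, 4862 to 6314 and 3611 to 4773 for OPC-like nuclei against neurons, oligodendrocyte-like and astrocyte-like nuclei, and 6123 to 7791 and 8013 to 9498 for astrocyte-like and oligodendrocyte-like nuclei against neurons. Members called ran from 0 to 2, 1 to 2, 1 to 2, 5 to 6, 5 to 5, 5 to 5, 5 to 6 and 6 to 6 in the same order.

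The log2 differences that changed sign were, with own markers, *Nlgn2* (-0.11) between dopamine-like and GABA-like nuclei, *Nrxn2* (0.027), *Nlgn2* (-0.038) and *Nlgn3* (0.19) between dopamine-like and glutamate-like nuclei, and *Nlgn1* (0.30) between GABA-like and glutamate-like nuclei. In the last comparison leaving out each rat gave -0.083 to 0.020 for *Nlgn1* (above 0 without rat 5), -0.018 to 0.13 for *Nlgn2* (below 0 without rat 2 or rat 5) and -0.13 to 0.19 for *Cbln4* (above 0 without rat 2). With no replicate block *Nlgn2* was -0.046 and *Cbln4* 0.23, and *Cbln4* was 0.00102 with DESeq2 and 0.020 with no filter. Rat 3, with 22 OPC-like nuclei, and the few UMIs of *Cbln1* and *Cbln2* limit the depth behind these values.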
